A study of Homo sapiens with 6 samples.

Results

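Strongly T-rich sites are stretches of sequenced RNA of 15 or more nt in which at least 70% of the bases read as T, the DNA letter for U. They were chosen by sequence alone, from the tables of all genomic sites with any read, and 72900 of 10639684 sites in 6 libraries met the rule. HuR replicate 2 held 53095 of them, HuR replicate 1 held 9262, G45 held 3585, G35 held 1451, G20 held 1604 and Total held 3903. The study used PAR-CLIP in HEK293, an established human embryonic kidney line. Cells that expressed FLAG-tagged HuR or FLAG-tagged GFP after doxycycline induction were grown with 4-thiouridine (4SU), crosslinked at 365 nm and immunoprecipitated with the FLAG M2 antibody, and the RNA was trimmed with RNase T1. GFP is no known RNA-binding protein, so the GFP material from gel slices at about 20, 35 and 45 kDa (G20, G35 and G45) measures background. Total is RNA from lysates of cells given 4SU and the same light, without immunoprecipitation, digested with proteinase K, depleted of rRNA and then cut with RNase T1. Each slice and Total is 1 library and HuR has 2, and the 3 slices are different pieces of gel rather than replicates, so no test between groups was made. With 2 libraries against 3, an exact two-sided permutation test could not give a p below 0.2. The labels do not say whether the HuR replicates came from separate cultures, so their spread may be technical.

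HuR, encoded by ELAVL1, is a ubiquitous member of the ELAV family that binds U-rich and AU-rich stretches, mostly in introns and 3' UTRs, and is known for stabilizing the mRNAs it binds. Long U-rich stretches also occur where HuR is not the only candidate partner, such as the polypyrimidine tract before a 3' splice site, which U2AF and PTB proteins recognize. In PAR-CLIP, 4SU crosslinked to protein is often copied as C, and a T-rich site offers many positions where this can happen. 4SU that is not crosslinked can also be read as C, so a T-to-C conversion does not by itself mark a contact. RNase T1 cuts RNA after G.

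The sites with the most reads show what these sequences look like. Each is printed 5' to 3' as the RNA strand, in lower case with its longest run of T in capitals. Positions are in hg19 (GRCh37). The first set shows whole sites of at most 30 nt among the 3 T-rich sites with the most reads of a library.
MARCKS upstream site, 3' UTR, chr6:114181873-114181899, plus strand: tctttttttattttacTTTTTTTTaag
MARCKS downstream site, 3' UTR, chr6:114182019-114182044, plus strand: tttctcttttaTTTTTTattttttcg
CEBPG, 3' UTR, chr19:33871980-33872007, plus strand: ctttcttttctttctcTTTTTTTcttag
CHD4, 3' UTR, chr12:6679481-6679502, minus strand: tttggTTTTattttgttggttt
GPBP1, 5' UTR, chr5:56471769-56471795, plus strand: TTTTTTTccttttatcttttatttacg
Intergenic, opposite a gene, chr4:176997125-176997145, minus strand: tcacTTTTTTTTccttttttg
The next set shows the 30 nt with the most T of longer sites, which led the HuR replicates.
PTBP2, 3' UTR, chr1:97279217-97279246, plus strand: cTTTTTTTTTTTTTTTTTTTTTcctttcaa
RC3H1, 3' UTR, chr1:173904836-173904865, minus strand: ttttttgcTTTTTTTccttttccttttctc
DICER1, 3' UTR, chr14:95553667-95553696, minus strand: tttgttatatttcttttcTTTTTTctttta
SRRM1, 3' UTR, chr1:24999140-24999169, plus strand: tttttctttcttcttcttaTTTTTTTcatt

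T-rich sites made up 0.384% of all sites in HuR replicate 1 (95% Wilson interval 0.376 to 0.392) and 1.32% in HuR replicate 2 (1.31 to 1.33). The share was 0.227% in G20 (0.216 to 0.238), 0.56% in G35 (0.532 to 0.589), 0.944% in G45 (0.914 to 0.975) and 0.137% in Total (0.132 to 0.141). G35 and G45 therefore lay between the HuR replicates. The HuR share, 0.852% ± 0.661 (SD, n = 2), was 1.48 ± 1.15 times the mean of the slices, a ratio that fell on either side of 1 in the individual replicates (0.666 and 2.29) and was 0.935 at sites of 20 to 24 nt. Against Total both replicates were higher, by 2.81 and 9.66 times. Reads carry no molecular identifiers, so these intervals cover counting error only.

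By reads the T-rich sites were rarer still. They held 0.122% of the reads of HuR replicate 1 (11639 reads) and 0.776% of those of HuR replicate 2 (249198 reads). They held 0.00667% in G20, 0.0845% in G35, 0.142% in G45 and 0.0146% in Total. HuR replicate 1 thus lay below G45, and HuR replicate 2 was above all other libraries. With the 10 deepest sites of each library left out, the shares were 0.0284% in G20, 0.0383% in Total, 0.127% in HuR replicate 1 and 0.796% in HuR replicate 2.

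Depth per T-rich site was low. The mean was 1.26 reads per T-rich site in HuR replicate 1 and 4.69 in HuR replicate 2, compared to 3.96 and 8.03 at their other sites of 15 or more nt. A single read supported 85.5% of the T-rich sites of HuR replicate 1, 28.9% of those of HuR replicate 2, 64.3% in G20, 27.8% in G35, 34.3% in G45 and 78.3% in Total. No T-rich site of G20 or Total reached 25 reads, and HuR replicate 2 had 839 that did. In HuR replicate 2 the T-rich share fell from 2.85% of single-read sites to 0.561% of sites with 25 or more reads, and it also fell with reads per site in the other libraries.

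Length bore on the share in every library. T-rich sites had a median length of 25 to 27 nt, compared to 18 to 24 nt for other sites. Among sites of 25 to 29 nt, the T-rich share was 4.15% in G45 (3.92 to 4.39), 2.39% in HuR replicate 2 (2.36 to 2.43), 2.2% in G35 (2.01 to 2.4), 0.771% in HuR replicate 1 (0.743 to 0.799), 0.458% in G20 and 0.271% in Total. At this length G45 was above both HuR replicates. Among sites of 15 to 19 nt, T-rich sequence was at most 0.115% of sites in any library.

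**Figure D1:**
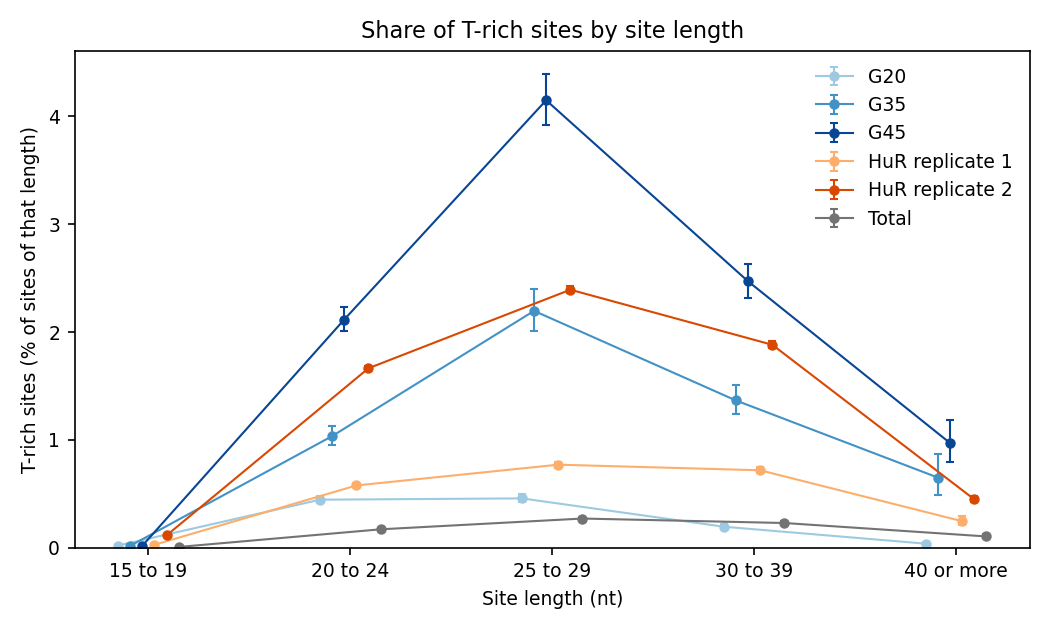
Share of T-rich sites (vertical axis, % of sites of that length) by site length (horizontal axis, nt) in each library; points are single libraries and bars are 95% Wilson intervals. G45 is highest from 20 nt on, with 4.15% at 25 to 29 nt, and Total is among the lowest at every length.

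The threshold cut through a continuous range of T content. In HuR replicate 2, 71924 sites were 65 to 70% T and 32147 were 70 to 75% T, and in HuR replicate 1 there were 18313 and 6395. Sites just outside converted at 90.7 and sites just inside at 85.7 events per 100 reads in HuR replicate 2, and at 89.4 and 86.9 in HuR replicate 1. In G45 these values were 43.2 and 41.4.

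T-rich sites of HuR carried more conversions than those of background. Conversion events per 100 reads were 86.7 in HuR replicate 1 and 85.1 in HuR replicate 2. They were 47 in G20, 52.7 in G35, 44.6 in G45 and 43.8 in Total. The HuR mean, 85.9 ± 1.16 (SD, n = 2), was 37.8 ± 1.16 events per 100 reads above the mean of the slices, a gap many times the spread between the HuR replicates. No slice overlapped the range of HuR. At sites of at least 80% T the gap was 17.4 events per 100 reads. PARalyzer kept reads with up to 2 conversions, so reads with more are missing from these values.

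The contrast between T-rich and other sites did not run the same way in every library. Other sites carried 50.8 events per 100 reads in HuR replicate 1, well below its T-rich sites, but 87.4 in HuR replicate 2, slightly above them. They carried 62 in G35 and 56.5 in G45, both above the T-rich sites there, and 18.8 in G20 and 39.1 in Total, both below. The other sites of HuR replicate 1 with 25 or more reads carried 36.5 events per 100 reads and held most of its reads.

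Single-read sites free this comparison from depth. A conversion was present at 71.4% of single-read T-rich sites in HuR replicate 1 (70.4 to 72.4) and at 59.6% in HuR replicate 2 (58.9 to 60.4). In the other libraries a conversion was present at 39.1% in G20 (36.2 to 42.1), 48.4% in G35 (43.5 to 53.3), 42.2% in G45 (39.5 to 45) and 38.3% in Total (36.6 to 40). Both HuR values were above every other library's interval. At other single-read sites the share was 66.6% and 62.8% in HuR, 35% in G20, 62.2% in G35, 57.8% in G45 and 23.3% in Total, so in G35 and G45 the T-rich sites were converted less often and in Total more often than the rest.

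Counted per T, conversion at T-rich sites was low everywhere, since each single-read T-rich site offered 19 to 20.4 T on average and other sites 5.49 to 7.86. Events per 100 T at single-read T-rich sites were 4.29 and 3.94 in the HuR replicates, 2.51, 3.06 and 2.61 in G20, G35 and G45, and 2.32 in Total. At other sites they were 9.34 and 9.45 in HuR and up to 13.5 in G35. The limit of 2 conversions per read bounds this measure more tightly where there are more T.

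**Figure D2:**
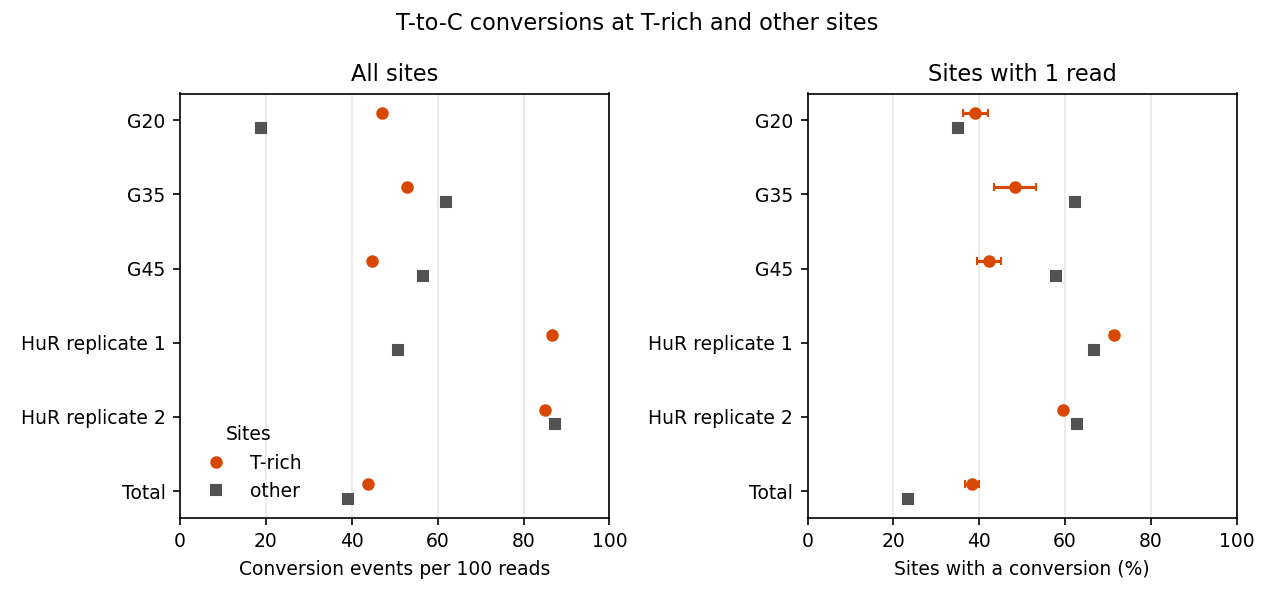
T-to-C conversions at T-rich sites (circles) and other sites of 15 or more nt (squares): conversion events per 100 reads over all sites (left) and % of single-read sites with a conversion (right), with 95% Wilson intervals on the right. T-rich sites of both HuR replicates lie near 85 events per 100 reads and those of the other libraries between 43.8 and 52.7.

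HuR replicate 2 also had T-rich sites with many converted positions. At 92.8% of its T-rich sites with 25 or more reads, 2 or more positions were converted, compared to 92.1% of other sites this deep. A median T-rich site of this library had 3 reads. Over all T-rich sites the share with 2 or more converted positions was 28.9% in HuR replicate 2 and 20.1% in HuR replicate 1, compared to 9.98% in G20, 13.4% in G35, 11% in G45 and 8.25% in Total. At other sites it was 28.5% in HuR replicate 2, 15.5% in HuR replicate 1, 8.06% in G20, 15% in G35, 12.2% in G45 and 7.51% in Total.

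The bases other than T differed little between libraries. T made up 73.7 to 74.5% of the bases in T-rich sites of each library. Among the remaining bases of HuR replicate 1, 39.2% were A, 40.1% C and 20.6% G, and in G45 they were 44.9% A, 37.5% C and 17.6% G. A was the second most frequent base of 38.5% of T-rich sites in HuR replicate 1 and 36.1% in HuR replicate 2, compared to 43% in G20, 45.9% in G35, 47.8% in G45 and 47.2% in Total. Both HuR replicates were below the other libraries here. G was the second base at 8.05% and 11.4% of HuR sites and at 4.44 to 7.1% of those of the other libraries.

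Short motifs were counted on the RNA strand in sites of 25 to 29 nt, so that lengths were alike. Motifs in 1 site may share bases. TTTTTTT was in 64.2% of T-rich sites of HuR replicate 1 and 78.2% of HuR replicate 2, and in 70.8 to 76.3% of those of the slices. It was in 3.67% and 8.31% of all sites of that length in HuR and in 13% in G45. TTTATTT, with an A inside U, was in 36.8% and 22.6% of T-rich sites of HuR replicates 1 and 2 and in 35.2% in Total, compared to 4.25%, 5.8% and 2.09% of all sites of that length. In the slices it was in 31.8 to 35.5% of T-rich sites. ATTTA, the core of the AU-rich element, was in 14.2% and 10% of T-rich sites of HuR, compared to 8.86% and 10.2% of all HuR sites of that length. In the slices it was in 12.6 to 13.6% of T-rich sites and in Total in 13.5%. The rule on T content favours motifs made mostly of T, so their excess over all sites was largely set by that choice. TTTCTTT was in 43.7% and 39.2%, TCTTTC (the pyrimidine type that PTB binds) in 11.8% and 9.83%, TTTGTTT in 11.7% and 13.7%, and TGTTTG (the GU type that CELF proteins bind) in 2.53% and 3.55%. For these 4 motifs the slices and Total ranged from 37.7 to 44.5%, 6.97 to 10.7%, 8.97 to 9.89% and 1.28 to 2.46%. Of all HuR sites of that length, 3.71% and 5.41% held TTTCTTT, 3.19% and 3.22% TCTTTC, 1.07% and 2.2% TTTGTTT, and 0.634% and 0.865% TGTTTG. The HuR replicates lay outside the range of the other libraries on the same side only in TTTGTTT and TGTTTG, where both were above it. These motifs were singled out from all those counted. In TGTTTG, HuR replicate 1 (interval 2.01 to 3.17) could not be told from G20 (1.44 to 4.17) or Total (1.64 to 3.35). The interval of HuR replicate 2 (3.29 to 3.83) also overlapped that of G20. In TTTGTTT, HuR replicate 1 (10.6 to 12.9) overlapped Total (8.34 to 11.7), and HuR replicate 2 (13.2 to 14.2) lay above every other library's interval.

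Both ends of a site can be cut by RNase T1, which leaves a G as the last base and a G before the first. A final G ended 97.7% and 96% of T-rich sites in HuR, 91.6% in G20, 92.8% in G35, 94.6% in G45 and 90.3% in Total. At other sites a final G was found in 87% and 93.2% in HuR, 73.8% in G20, 49.3% in G35, 45.7% in G45 and 95.4% in Total, so the T-rich sites were above the others in 5 libraries and below them in Total. A G before the first base was present at 62.3% of T-rich sites in HuR replicate 1, 64% in G20, 58.5% in G35, 64.4% in G45 and 65.5% in Total, but at 40.7% in HuR replicate 2. The other sites of HuR replicate 2 had a G there at 63%.

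This end of the site went along with several other measures. T-rich sites of HuR replicate 2 with a preceding G carried 100.5 events per 100 reads and those without it 65. In HuR replicate 1 the values were 97.3 and 64.6. In the slices and Total the order was the opposite, with 40.8 and 54.9 in G45, 50 and 58.5 in G35, 43 and 55.7 in G20 and 38.4 and 55.6 in Total. Other sites with a preceding G carried more events than those without it in all 6 libraries. In HuR these values were 100.1 and 60.6 in replicate 2 and 67.2 and 38.5 in replicate 1. They were 59.8 and 55.4 in G45, 63.7 and 61.4 in G35, 31.9 and 16.5 in G20 and 43.5 and 26.4 in Total. T-rich sites without the G were also more often intergenic, at 58.3% against 25.2% in HuR replicate 2, 48.9% against 13.1% in HuR replicate 1 and 45.6% against 14.2% in G45. Other sites showed the same split in this share, with 50% and 19.1% intergenic in HuR replicate 2. The part of the preceding base in the other results was not tested. Only the ratios and differences in the closing section on processing were repeated with the sites that have it.

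Introns held the largest part of the T-rich sites. They held 66.3% in HuR replicate 1 (65.3 to 67.2), 52.1% in HuR replicate 2 (51.7 to 52.6), 62.7% in G20, 58.8% in G35, 63.7% in G45 and 64% in Total. Intergenic sites followed, with 26.6% and 44.8% in HuR, 24.9% in G20, 27.8% in G35, 25.4% in G45 and 23.2% in Total. HuR replicate 2 stood apart in its intergenic share, which was 55.4% at its single-read sites and 35.1% at sites with 5 or more reads. Regions were taken at the midpoint of a site on its own strand.

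Compared with the other sites of the same library, T-rich sites were more often intronic in the slices, where the difference was 22.7 percentage points for the G20 library, 19.9 for G35 and 25.4 for G45. In Total the difference was 5.31, and in HuR it was 5.31 in replicate 1 and -8.49 in replicate 2. Its mean, -1.59 ± 9.76 percentage points (SD, n = 2), was smaller than the spread between the replicates, so no direction could be given. Coding sequence was nearly free of T-rich sites, with 7 and 11 sites in the HuR replicates, 6 in Total, 2 in G45, 1 in G35 and 0 of 1604 in G20, which allows a share of up to 0.187%.

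The 3' UTR share of T-rich sites was 4.7% in HuR replicate 1 (4.28 to 5.15) and 1.6% in HuR replicate 2 (1.49 to 1.71). It was 9.73% in G20, 10.2% in G35, 7.89% in G45 and 9.35% in Total, all above HuR. With more reads the share rose. At T-rich sites of 5 or more reads it was 41.8% in HuR replicate 1 (98 sites), 2.51% in HuR replicate 2 (17620 sites), 58.3% in G20 (36 sites), 16.3% in G35, 13.9% in G45 and 58% in Total (50 sites). The libraries in which few T-rich sites reached 5 reads had the highest shares.

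**Figure D3:**
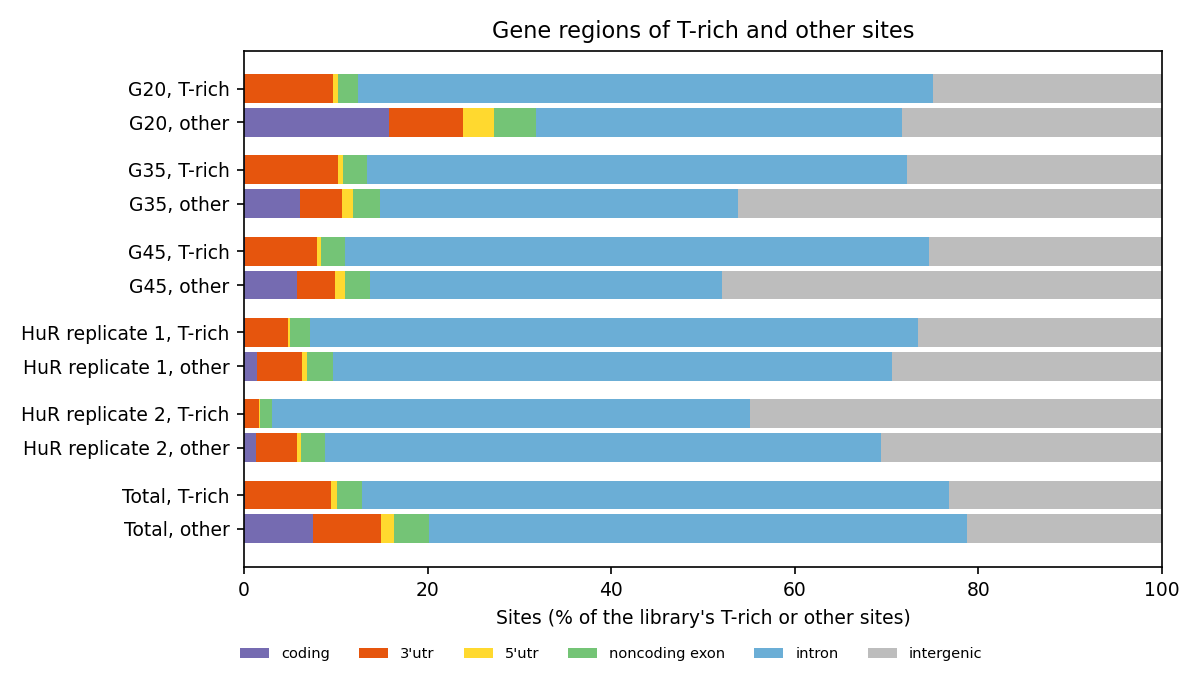
Gene regions of T-rich and other sites of 15 or more nt in each library (horizontal axis, % of sites; colours are regions of the GENCODE annotation on the site's strand). T-rich sites have nearly no coding sequence, and the intergenic part is widest among them in HuR replicate 2, at 44.8%.

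The genome itself holds T-rich sequence mostly in introns and between genes. Of non-overlapping windows of 20 nt, read on the strand of the gene or, between genes, on each strand, 0.852% of intronic, 0.646% of 3' UTR, 0.231% of 5' UTR and 0.0179% of coding windows were at least 70% T, as were 0.647% of intergenic windows. Sites of 20 to 24 nt in introns were T-rich at 0.473% in HuR replicate 1, 1.14% in HuR replicate 2, 0.57% in G20, 1.24% in G35, 2.99% in G45 and 0.162% in Total. G45 was thus 3.52 times the genome's value and HuR replicate 1 0.555 times. Between genes, HuR replicate 2 had 3.43% T-rich sites of this length, 5.29 times the genome's value, and HuR replicate 1 had 1.21%. In 3' UTRs the same sites were T-rich at 0.384% and 0.396% in HuR, 0.412% in G20, 1.43% in G35, 2.27% in G45 and 0.205% in Total.

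A small part of the intronic T-rich sites lay just before 3' splice sites, where the polypyrimidine tract lies. That tract is itself rich in T, so a rule on T content favours sites in it. T-rich genome sequence near exons was not counted, so an excess over other sites is no result about binding. The share of intronic T-rich sites within 50 nt upstream of an annotated exon start was 2.15% in HuR replicate 1 (1.82 to 2.54), 2.88% in HuR replicate 2 (2.69 to 3.08), 2.69% in G20 (1.85 to 3.88), 2.81% in G35 (1.9 to 4.15), 3.02% in G45 (2.4 to 3.81) and 2.88% in Total (2.3 to 3.62). At other intronic sites it was between 0.681% in HuR replicate 1 and 1% in Total. The T-rich sites were above the other sites in each library, while the libraries' intervals overlapped for T-rich sites, except between the HuR replicates. Most of these sites were centred 11 to 20 nt before the exon, in a step that held 1.34% and 1.88% of the intronic T-rich sites of HuR.

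**Figure D4:**
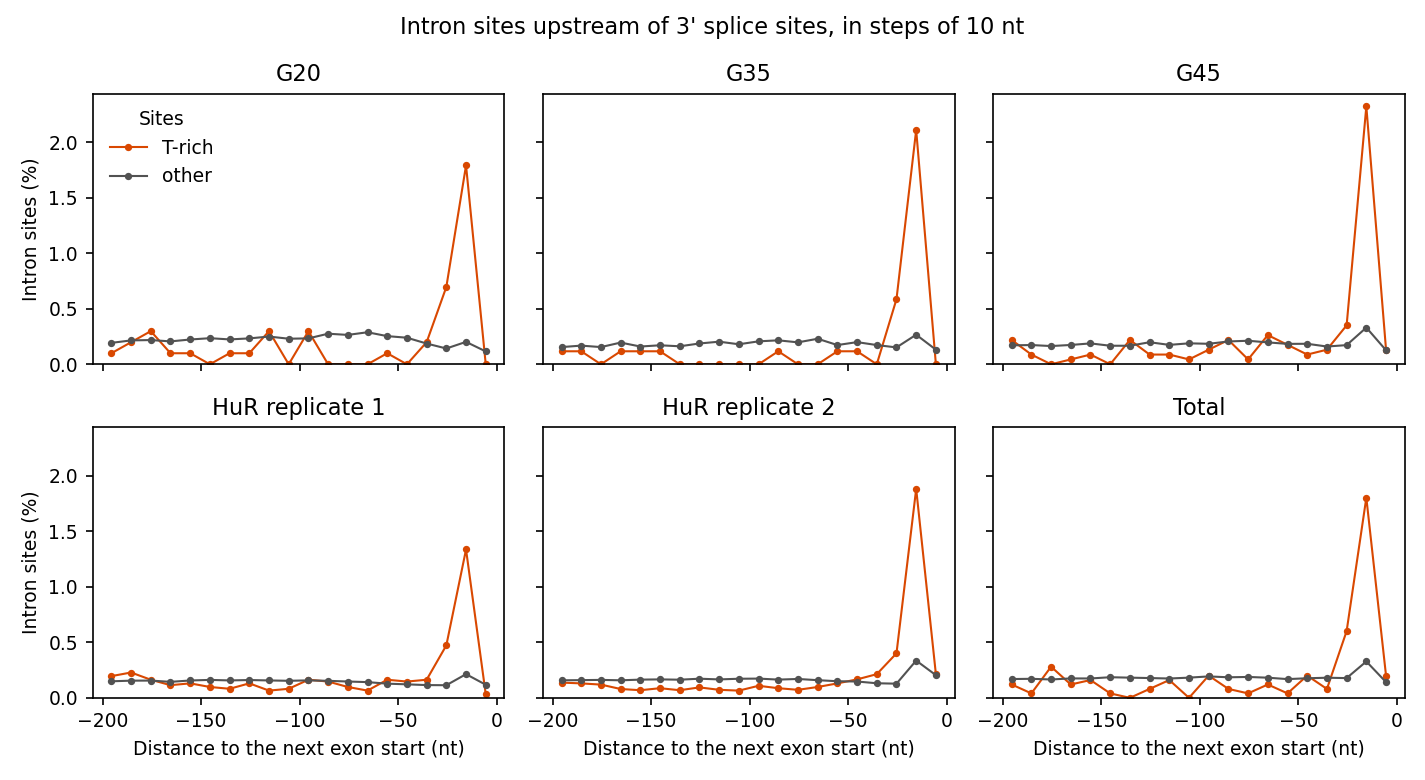
Intronic T-rich and other sites upstream of annotated exon starts, in steps of 10 nt: distance of the site's midpoint to the next exon (horizontal axis, nt) and % of the library's intronic T-rich or other sites (vertical axis). In every library the T-rich sites peak at 11 to 20 nt before the exon, at 1.34 to 2.32%, and other sites stay below 0.35%.

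Overlap with background went opposite ways in the HuR replicates. A slice site shared at least 1 bp with 14.2% of the T-rich sites of HuR replicate 1 (13.5 to 14.9) and with 9.89% of its other sites. In HuR replicate 2 it did so with 4.97% of T-rich sites (4.79 to 5.16) and with 8.3% of other sites. Over all nuclear sites of 15 or more nt the shares were 9.91% in HuR replicate 1 and 8.26% in HuR replicate 2. The difference between T-rich and other sites, 4.33 and -3.34 percentage points, averaged 0.497 ± 5.42 (SD, n = 2), less than the spread between replicates. In Total, 18.4% of T-rich and 10.6% of other sites overlapped a slice.

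Reads per site moved with this overlap. In HuR replicate 1 the T-rich sites were above the others in each class, with 10.5% against 6.74% at 1 read, 32.7% against 13.9% at 2 to 4 reads and 75% against 41.5% at 5 to 24 reads. In HuR replicate 2 they were below the others at 1 read, 2.4% against 7.25%, and at 2 to 4 reads, 3.65% against 6.47%. At 25 or more reads they were above them there too, 38.6% (35.4 to 42) against 32.7%. The order of T-rich and other sites in that replicate thus turned at 25 reads.

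**Figure D5:**
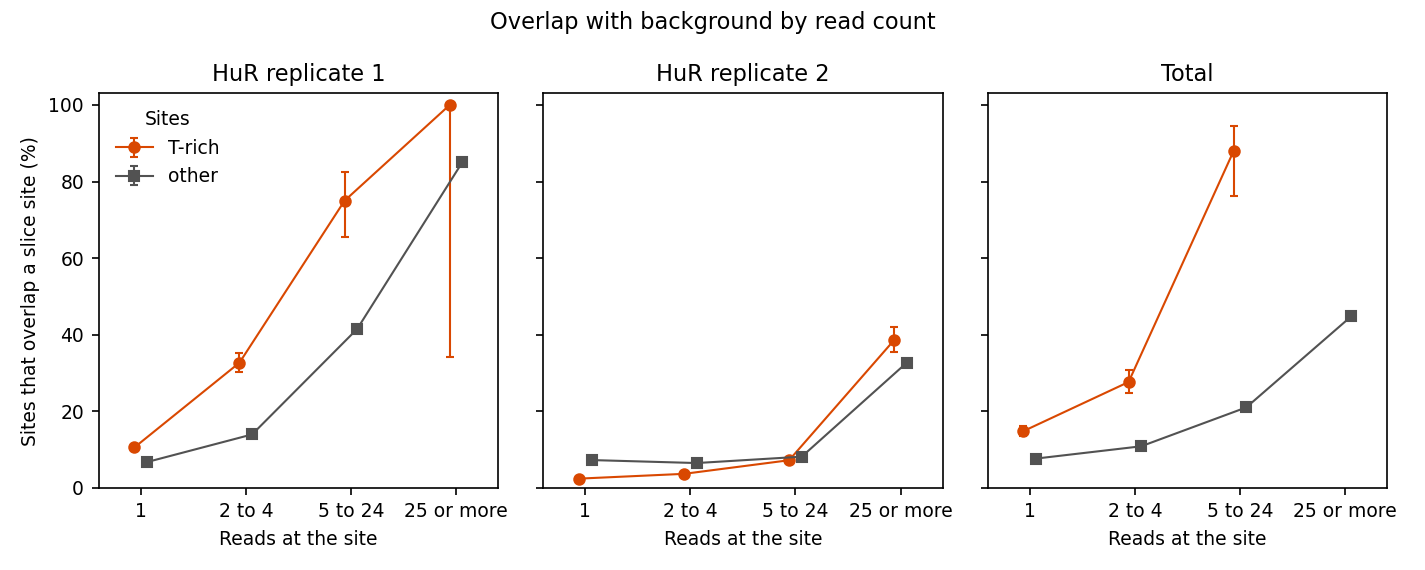
Share of T-rich and other sites (vertical axis, %) that overlap a site of any slice, by reads at the site (horizontal axis), in the HuR replicates and Total; bars are 95% Wilson intervals. T-rich sites lie above other sites in HuR replicate 1 and Total, and below them in HuR replicate 2 except at 25 or more reads (38.6% against 32.7%); the 100% of HuR replicate 1 rests on 2 sites.

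HuR T-rich sites that overlapped background carried more conversions in all, but not at every depth. They carried 98.2 events per 100 reads in HuR replicate 1 and 98 in HuR replicate 2, and T-rich sites free of overlap carried 83.6 and 83.1. At single reads the values were 95.7 and 81.1 in replicate 1 but 78.6 and 77.5 in replicate 2, and at 5 to 24 reads of replicate 1 they were 100.6 and 104.5. At all other sites together the order was opposite, with 41.2 and 68.5 in replicate 1 and 84.8 and 88.4 in replicate 2. Among single-read other sites the order was that of T-rich sites, with 77.9 and 71.4 in replicate 1 and 84 and 73.5 in replicate 2. With 25 or more reads the other sites carried 37.6 and 17.9 in replicate 1 but 83 and 101.9 in replicate 2. The order at other sites thus also changed with depth. The T-rich sites with overlap were also more often in 3' UTRs, at 14.4% against 3.08% in replicate 1 and 5.61% against 1.39% in replicate 2. Other sites had the same order, at 11% against 4.23% in replicate 1 and 10.8% against 3.85% in replicate 2.

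Seen from background, most T-rich sites lay at a site of HuR replicate 2, the library with the most sites (4024972), but not of HuR replicate 1. On the same strand, HuR replicate 2 had a site at 68.5% of the T-rich sites of G20, 65.7% of those of G35 and 68.4% of those of G45, compared to 28.4%, 36.5% and 34% of their other sites. HuR replicate 1 had one at 30.9%, 28% and 27.9%. Total shared 17.8%, 15.4% and 14.1%. These values of HuR replicate 1 and Total stand without those of the slices' other sites, so they give no contrast with them. The T-rich sites of Total itself were found in HuR replicate 2 at 62% and in HuR replicate 1 at 25.4%, compared to 25.4% and 16.9% of its other sites. On either strand, both other slices had a site at 4.68% of the T-rich sites of G20, 5.03% of those of G35 and 1.95% of those of G45, compared to 6.93%, 18.9% and 13% of other sites.

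Between the HuR replicates, 60.4% of the T-rich sites of replicate 1 lay at a site of replicate 2 on the same strand, compared to 34.3% of other sites. In the other direction, 8.23% of the T-rich sites of replicate 2 lay at a site of replicate 1, compared to 19.8% of other sites. The share was 13.6% for T-rich sites of replicate 2 with a preceding G and 4.53% for those without.

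Merged on the same strand, the T-rich sites of all libraries formed 65044 loci, of which 55566 were T-rich in HuR only and 3069 in both HuR replicates. Of these 3069, 2502 had no read in any slice and 380 had reads in Total. A slice was T-rich at 6170 loci, of which 2000 had no read in either HuR replicate and 1503 had reads in both. Only 56 loci were T-rich in all 3 slices. Other sites were not merged into loci, so these counts have no general rate beside them. HuR replicate 2 alone held 53095 of the 72900 T-rich sites. Over all nuclear sites of 15 or more nt, 9.91% of HuR replicate 1 and 8.26% of HuR replicate 2 overlapped a slice site on either strand.

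A site can lie at the same locus and yet miss the rule. Overlapping reads are merged into sites, and the part of this merging was not tested. HuR replicate 2 had 2461 sites at T-rich loci of G45, and 51% of them were T-rich themselves. The rest had a median length of 39 nt and 60% T, and held 81.3% of the reads. In HuR replicate 1, 68.9% of 1020 sites at these loci were T-rich, and the rest had a median of 32 nt.

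All reads at loci chosen on Total, a library outside the comparison of HuR with the slices, give a measure that does not need the rule in HuR. A site that touches a locus counts with all its reads, including any outside the locus. The 3903 loci with a T-rich site in Total held 2671 RPM, the reads scaled to 1000000 reads of the library, in HuR replicate 2, 298.8 in HuR replicate 1, and, as background, 306.6 in G45, 188.3 in G35 and 15.4 in G20. Total held 146.1 RPM there, a value that the choice of loci fixed. Without the 10 loci with the most reads in each library they held 2206, 240.1, 248.7, 146.4, 12.3 and 142.8 RPM. HuR replicate 1 was close to G45, and HuR replicate 2 was several times above both, so the spread between HuR replicates again exceeded the gap to G45. Conversions at these loci did separate HuR from G45, the only slice compared here. T-rich sites there carried 96.5 and 99 events per 100 reads in HuR and 44.5 in G45. Sites there below the T threshold carried 98.1 and 102 in HuR and 59.9 in G45.

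At 6 loci, T-rich sites were present in all libraries. They lay in the 3' UTRs of ZFP36L2, which encodes a decay factor that binds AU-rich elements, of the transcription factor SP3 and of the transcriptional coregulator HCFC1, and in introns, among them those of ISG15 and MRPL45P2. They were picked after their values were seen. Whole T-rich sites of at most 30 nt at the 3 loci in 3' UTRs show the shared sequence.
ZFP36L2, 3' UTR, chr2:43451233-43451257, minus strand: tcTTTTTTTTTTTatttttattacg
SP3, 3' UTR, chr2:174773496-174773525, minus strand: ctgtattttctttttaTTTTTTaattattg
HCFC1, 3' UTR, chrX:153213962-153213989, minus strand: taatcttttttcttttctcTTTTTTTTg

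The SP3 locus had 5 reads in G20, 3 in G35, 17 in G45, 10 in HuR replicate 1, 219 in HuR replicate 2 and 2 in Total. Its T-rich reads carried 100 and 121.9 events per 100 reads in HuR replicates 1 and 2, 120 in G20, 100 in G35, 0 in G45 and 50 in Total, so HuR did not stand apart from G20 and G35 there. ZFP36L2 had 3, 6, 5, 6, 172 and 5 reads in the same order, which is 5.36 RPM in HuR replicate 2 and below 1 RPM in every other library.

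T-rich sites were spread over many genes. A gene was counted where a T-rich site had its midpoint in it on the same strand. Among genes with any site, those with a T-rich site were 11.4% of 36185 in HuR replicate 1, 28.8% of 37763 in HuR replicate 2, 3.59% in G20, 4.02% in G35, 7.79% in G45 and 6.3% in Total. The 10 genes with the most T-rich reads held 2.83% and 1.97% of the genic T-rich reads of HuR, and 5.54 to 7.26% of those of the slices. Bulk libraries do not tell a gene that is bound more often from one that is more abundant.

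In the HuR replicates, the genes with the highest mean level were PTBP2, MKLN1, DICER1, RC3H1, HELLPAR, SRRM1, PRKG1 and SP3. PTBP2, the neuronal form of the polypyrimidine tract-binding protein, had 11 T-rich reads in HuR replicate 1 (1.15 RPM) and 538 in HuR replicate 2 (16.8 RPM). It had 0, 6 and 24 in G20, G35 and G45 and 5 in Total. Of the 538 reads, 446 were at the 3' UTR site printed above, with 26 converted positions and 111 events per 100 reads, and that site's position held 4 reads in HuR replicate 1, 19 in G45, 0 in G35, 3 in G20 and 3 in Total.

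DICER1, the RNase III enzyme that matures microRNAs, had 9 T-rich reads in HuR replicate 1 and 362 in HuR replicate 2 and none in the slices or Total, where 3 reads of G20, 10 of G45 and 5 of Total lay at the position of its leading site, below the T threshold. RC3H1 encodes Roquin-1, which binds stem loops in mRNAs and promotes their decay. It had 376 T-rich reads in HuR replicate 2 and 0 in every other library, although 44 reads of HuR replicate 1, 15 of G35, 6 of G45, 2 of G20 and 1 of Total lay at the same position in sites below the T threshold. Both sites carried over 1 event per read in HuR replicate 2, with 119.2 events per 100 reads in DICER1 and 123.3 in RC3H1.

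SRRM1, a coactivator of splicing, was the only one of the 8 with more T-rich reads in HuR replicate 1 (80, or 8.4 RPM) than in HuR replicate 2 (52, or 1.62 RPM), and it had 25 in G45. At the position of its leading site, HuR replicate 2 had 940 reads in all. MKLN1, which encodes muskelin, had 13 and 393 T-rich reads in 9 and 17 sites of HuR, led by intronic sites, and 7, 14 and 10 in G20, G35 and G45. PRKG1, a cGMP-dependent kinase, had 17 and 262 reads in 11 and 30 sites, also led by introns. HELLPAR, a lncRNA, had 14 and 275, and SP3 had 15 and 240.

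The 8 genes had SDs of 4.17 to 11 RPM around HuR means of 4.52 to 8.95 RPM, so in each the spread between replicates was about as large as the level. In 7 of the 8 HuR replicate 2 had the higher value.

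Background named other genes. MARCKS, an actin-binding substrate of protein kinase C, led the slices with 37 T-rich reads in G20 (0.957 RPM), 63 in G35 (10.2 RPM) and 189 in G45 (25.1 RPM). In HuR it had 10 T-rich reads in replicate 1 and 0 in replicate 2. HuR replicate 2 nonetheless had 4585 reads at the position of the upstream MARCKS site (142.8 RPM) and 1780 at the downstream site (55.4 RPM), in sites that were longer and below 70% T. These are all reads of those longer sites, so some may lie outside the printed stretch. CEBPG, a C/EBP transcription factor, was alike, with 3342 reads of HuR replicate 2 (104.1 RPM) at a position that held 80 in G45, 47 in G35, 18 in G20, 18 in Total and 79 in HuR replicate 1.

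CHD4, the helicase of the NuRD complex, differed from these. At its 3' UTR site G35 had 48 reads (7.76 RPM), with 48 conversion events at 1 position, G45 had 34 (4.51 RPM) and G20 had 5. HuR replicate 1 had 1 read there and HuR replicate 2 had 45 (1.4 RPM), below both G35 and G45. Its sequence holds 4 T in its longest run and no C.

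NUDT19, a hydrolase, had 5, 6 and 57 T-rich reads in G20, G35 and G45. GPBP1, a promoter-binding factor, had 12, 21 and 35. Both had under 30 T-rich reads in each HuR replicate. At their leading positions HuR replicate 2 had 1074 reads in NUDT19 (33.4 RPM) and 1010 in GPBP1 (31.5 RPM), each above every slice. These are again all reads of the sites that touch the position.

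Total had few reads at any T-rich site. NUDT19 led it with 21 T-rich reads (0.585 RPM), ahead of MARCKS with 17, the mitotic kinase MASTL with 16, and the snoRNA SNORD97 and the double-stranded RNA-binding STAU1 with 14 each. With so few reads the order of these genes could not be told from counting error. The intergenic site on chromosome 4 had 13 reads without a conversion in Total, 6 in G35, 1 in G20, 5 in HuR replicate 2 and none in the other libraries.

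Known HuR target mRNAs held T-rich sites in differing numbers. Of 24 listed targets, all with sites in every library, 3 had a T-rich site in HuR replicate 1 and 12 in HuR replicate 2, which are 12.5% and 50% against 11.4% and 28.8% of all genes with a site. G20 had 3 (12.5% against 3.59% of all genes with a site), G35 had 1 (4.17% against 4.02%), G45 had 4 (16.7% against 7.79%) and Total had 3 (12.5% against 6.3%). XIAP, an inhibitor of caspases, had 2 and 56 T-rich reads in the HuR replicates, ELAVL1 itself had 6 and 11, the histone deacetylase HDAC2 had 0 and 25, and the apoptosis inhibitor BCL2 had 2 and 18. T-rich sites held 0.258% and 0.425% of the reads of the listed targets in HuR, above the 0.122% of the whole library in replicate 1 and below the 0.776% in replicate 2. In G45 they held 0.558% against 0.142%.

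Genes of proteins that bind U-rich and AU-rich RNA were listed too. Of 23 with any site, 12 had one in HuR replicate 1 (52.2%), 14 in HuR replicate 2 (60.9%), 4, 7 and 10 in G20, G35 and G45, and 7 in Total. All genes with a site gave 11.4% and 28.8% in HuR. In background the list stood at 17.4%, 30.4% and 43.5% in G20, G35 and G45 and 30.4% in Total, against 3.59%, 4.02%, 7.79% and 6.3% of all genes, so the list was above all genes in every library and not in HuR alone. PTBP2 led in HuR, followed by ZFP36L2 with 6 and 172 reads, FUBP1, which binds single-stranded elements, with 3 and 46, and the splicing regulator CELF2 with 3 and 37. Among 12 lncRNAs, 4 had a T-rich site in HuR replicate 1 and 4 in HuR replicate 2, which are 33.3% each against 11.4% and 28.8% of all genes. In the slices 2 of 12, 3 of 11 and 4 of 12 had one in G20, G35 and G45, and in Total 5 of 12. The 4 with the highest mean had 7 and 153 T-rich reads (JPX), 8 and 79 (FTX), 0 and 29 (NEAT1) and 4 and 0 (NORAD) in these replicates. Among 17 cytosolic ribosomal protein genes, whose transcripts are short and abundant, 1 had a T-rich site in HuR replicate 1 (RPS4X) and 2 in HuR replicate 2 (RPS3 and RPL4), which are 5.88% and 11.8% against 11.4% and 28.8% of all genes. In background, 0, 0 and 1 had one in G20, G35 and G45, and 2 in Total. These lists differ in gene length and in how many sites their members have, and that part was not tested.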

How the data were processed

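Members and gene lists were chosen with earlier results of these data known. The authors sequenced single reads of 50 bp, dropped trimmed reads under 10 bp, mapped the rest to hg19 with bowtie (version not given in the sources used here) and used PARalyzer, which kept unique alignments with 0, 1 or 2 T-to-C changes. For each site the authors deposited raw counts: reads, converted positions and conversion events. Libraries held 6187300 to 38644636 reads.

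Here all 12 tables were read. Sequences matched GRCh37 at all nuclear sites checked, and mitochondrial positions did not, so those sites were left out of regions and overlaps and no T-rich site was among them. Regions came from GENCODE release 44 on GRCh37, taking coding sequence ahead of UTRs (3' ahead of 5'), then exons of noncoding RNAs, then introns. An overlap was 1 shared bp on either strand unless the same strand is named. Floors are 3 counts and intervals are 95% Wilson intervals. RPM are reads scaled to 1000000 reads at a library's sites. Reads at a locus or position are all reads of the sites that touch it, so longer sites can add reads from outside it. Other sites are those of 15 or more nt below 70% T. Overlap and the rule were tested on simulated data.

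Named were the 8 genes with the highest mean T-rich RPM in HuR, 5 in the slices and 5 in Total, the 4 highest of each gene list in HuR, and the 3 T-rich sites with the most reads of each library. The XIST gene was left out, and 2 sites that the rules name are not reported here. Python 3.11.15, numpy 2.4.6, pandas 2.3.3, scipy 1.17.1, pysam 0.24.0, matplotlib 3.10.9 and samtools 1.23.1 were used. The alternatives changed the T threshold, length, read minimum, sites with the most reads, mitochondrial genome, table, libraries, strand and overlap; 1 on the preceding base was chosen after seeing the data.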

Additional observations from a re-analysis of the deposited data

Results flagged for a closer look

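The difference in 3' UTR share between T-rich and other sites of a library was -0.2 percentage points in HuR replicate 1 and -2.83 in HuR replicate 2, compared to 1.63 in G20, 5.65 in G35 and 3.76 in G45. The HuR mean was lower than the slice mean by a difference of -5.19 percentage points. It was singled out because both HuR libraries were below 0 and all 3 slices above 0, and the difference between the groups was not tested. In HuR replicate 1 the value lay within counting error, with 4.7% of T-rich sites (4.28 to 5.15) against 4.9% of other sites, so the sign in HuR rests on replicate 2. At sites of 5 or more reads HuR replicate 1 had 41.8% against 10.4%, and HuR replicate 2 had 2.51% against 5.68%. Total had a difference of 1.93.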

How the results depend on the processing

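The ratio of the T-rich share of sites in HuR to that in the slices turned to 0.935 with sites of 20 to 24 nt only and to 0.741 with only sites preceded by a G, and ranged from 0.666 to 2.29 when a HuR replicate was left out. The ratio of shares of reads, 5.77 over all sites, was 16.7 in the clusters tables, 1.87 with a preceding G (0.869 in HuR replicate 1) and 1.57 to 9.96 without a replicate, and HuR replicate 1 stood at 0.293 with 5 or more reads. The ratio of HuR to Total was 34.1 with 5 or more reads, 25.4 in clusters and 2.81 to 9.66 without a replicate. The gap in conversion events per 100 reads stayed above 0 in all alternatives, with 17.4 at 80% T or more, 29.9 at 20 to 24 nt, 47.5 with 5 or more reads, 27.1 in clusters, 54.3 with a preceding G, and 36.9 to 38.6 without a replicate. The authors chose clusters by a minimum of reads and of converted positions. The gap in clusters thus rests on sites already picked on conversions and is no check of it. The other values in clusters are of sites chosen the same way. The intron difference was 3.76 at 60% T or more, -17.3 at 20 to 24 nt, 2.7 with a preceding G and -8.49 to 5.31 without a replicate. The overlap difference was -2.62 at 80% T or more, 12.3 with 5 or more reads, 21.2 in clusters and -3.34 to 4.33 without a replicate. The causes were not tested.
Leaving out G20, the 10 sites with the most reads or the mitochondrial genome kept each value within the spread of the HuR replicates, as did the same strand and an overlap of 50% of the site for the overlap difference. Depth limits the T-rich sites most in HuR replicate 1, G20 and Total, where a single read supports most of them. No paired analysis was possible because only HuR carries replicate numbers.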

Other observations

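Repeats in the authors' annotation were a small part of the T-rich sites. Low-complexity sequence was named at 3.29% of T-rich sites of HuR replicate 1 and 2.93% of those of HuR replicate 2, compared to 0.277% and 0.605% of their other sites. In the slices it was named at 4.24 to 4.48% of T-rich and 0.518 to 0.753% of other sites. Simple repeats were named at 2.46% and 2.86% of T-rich sites of HuR and at 2.62 to 3.24% in the slices. At other sites they were named at 0.213% and 0.314% in HuR and at 0.353 to 0.526% in the slices. LINE elements were named less often at T-rich sites than at other sites of all 6 libraries, with 2.62% against 4.92% in HuR replicate 1 and 2.34% against 5.95% in G45. SINE elements were at 0.68 to 1.17% of the T-rich sites of the 6 libraries, compared to 3.34 to 4.58% of their other sites. For Total the repeat class came from a different field of the annotation, which named no Alu elements.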
